A study of Arabidopsis thaliana with 6 samples.

Results

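The targets of the copper-responsive microRNAs (miRNAs) miR408 and miR398 were represented by 3 genes in Arabidopsis thaliana embryos. They were ARPN (AT2G02850), the plantacyanin gene targeted by miR408, and CCS (AT1G12520) and the COX5B gene AT3G15640, both targeted by miR398. Each was chosen by name and had 1 probe set that names it alone, out of 9631 single-gene probe sets for 9532 different genes and 17122 probe sets tested in all.

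Embryos carrying the mutant allele dcl1-15 on both copies of DCL1 were set against wild type (DCL1/DCL1) embryos, with 3 arrays per genotype. Embryos of both genotypes came from a line in the Ws background that had been crossed repeatedly to Landsberg erecta and descended from DCL1/dcl1-15 plants. Mutant embryos grew on heterozygous plants, in siliques whose normal embryos had reached the torpedo stage, when the cotyledons elongate, whereas wild-type torpedo embryos grew on DCL1/DCL1 siblings, so that the genotype of the embryo and that of the mother plant cannot be told apart. Each sample pooled 300 embryos taken out of their ovules, and 50 ng of RNA was amplified per array.

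DCL1 is a Dicer-like enzyme and frees most Arabidopsis miRNAs from longer precursor RNAs, and a plant miRNA guides an ARGONAUTE protein to a closely matching messenger RNA, which is then cut or translated less. In Arabidopsis leaves and seedlings miR397, miR398, miR408 and miR857 rise when copper is scarce, under the transcription factor SPL7, and many of their targets encode copper proteins. Lowering these proteins is thought to spare copper for plastocyanin, the copper carrier of photosynthesis. The comparison asks whether the measured targets differed in embryos with a defect in making miRNAs.

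Of the 3 targets, ARPN rose in dcl1-15 embryos and CCS and AT3G15640 did not pass the threshold. This main fit did not use the replicate numbers, and AT3G15640 passed with them as a block, as given below. A gene is said to have risen or fallen where its limma p-value, adjusted by Benjamini-Hochberg over all 17122 probe sets, was below 0.05. In the same comparison 39.1% of all probe sets passed, 18.3% higher and 20.8% lower, so that 1 call among 3 genes is near the share of the whole table. In pooled embryos a difference in RNA per cell and a difference in the share of cells that hold the RNA cannot be told apart.

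ARPN encodes plantacyanin, a small blue copper protein of the extracellular matrix that has been studied in pollen and the pistil. Its normalized log2 values were 8.95, 9.39 and 9.01 on the dcl1-15 arrays numbered 1, 2 and 3, against 6.43, 6.31 and 6.50 on the wild-type arrays of the same numbers. Every dcl1-15 value lay above every wild-type value, and the gap between the genotypes was several times the spread within either. The 3 values of each genotype did not overlap in 52.5% of all probe sets. The means were 9.12 ± 0.24 in dcl1-15 and 6.41 ± 0.10 in wild type (SD, n = 3 each). The difference, dcl1-15 minus wild type, was 2.70 ± 0.21 on the log2 scale (SE, limma adjusted p = 3.71e-05), a 6.52-fold higher normalized value with a 95% interval from 4.70-fold to 9.03-fold. Of all probe sets tested, 98.2% had a lower difference, and 313 had a higher one, all of them past the threshold.

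CCS encodes the copper chaperone that loads copper into the copper/zinc superoxide dismutases. Its values were 9.61, 9.73 and 9.92 on the dcl1-15 arrays, against 9.50, 9.50 and 9.90 on the wild-type arrays. The genotypes overlapped, and array 3 was the highest in each. The means were 9.75 ± 0.15 in dcl1-15 and 9.63 ± 0.23 in wild type (SD, n = 3 each). The difference was 0.12 ± 0.17 (SE, limma adjusted p = 0.606), and -0.017 (adjusted p = 0.954) with the arrays centred on 2 reference genes, so no direction is given for it. The 95% interval, from 0.83-fold to 1.41-fold, lay below the whole interval of ARPN. In size the difference exceeded that of 14.1% of all probe sets.

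AT3G15640 encodes subunit 5b of cytochrome c oxidase, a nuclear-encoded part of the last complex of the mitochondrial respiratory chain, whose catalytic core carries copper. Its values were 9.66, 9.37 and 9.59 on the dcl1-15 arrays, against 10.18, 9.73 and 9.80 on the wild-type arrays. All dcl1-15 values were below all wild-type values, by a margin narrower than the spread within either genotype, and wild-type array 1 stood above the other two. Among all probe sets, 28.5% had every dcl1-15 value below every wild-type value. The means were 9.54 ± 0.15 in dcl1-15 and 9.90 ± 0.24 in wild type (SD, n = 3 each), a difference of -0.36 ± 0.17 (SE, limma adjusted p = 0.118) with a 95% interval from 0.60-fold to 1.01-fold. With the replicate number as a block the same difference passed (limma adjusted p = 0.0450), in a fit that called 49.2% of all probe sets, 26.8% lower and 22.4% higher. Without wild-type replicate 1 it was -0.23 (adjusted p = 0.248).

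**Figure D1:**
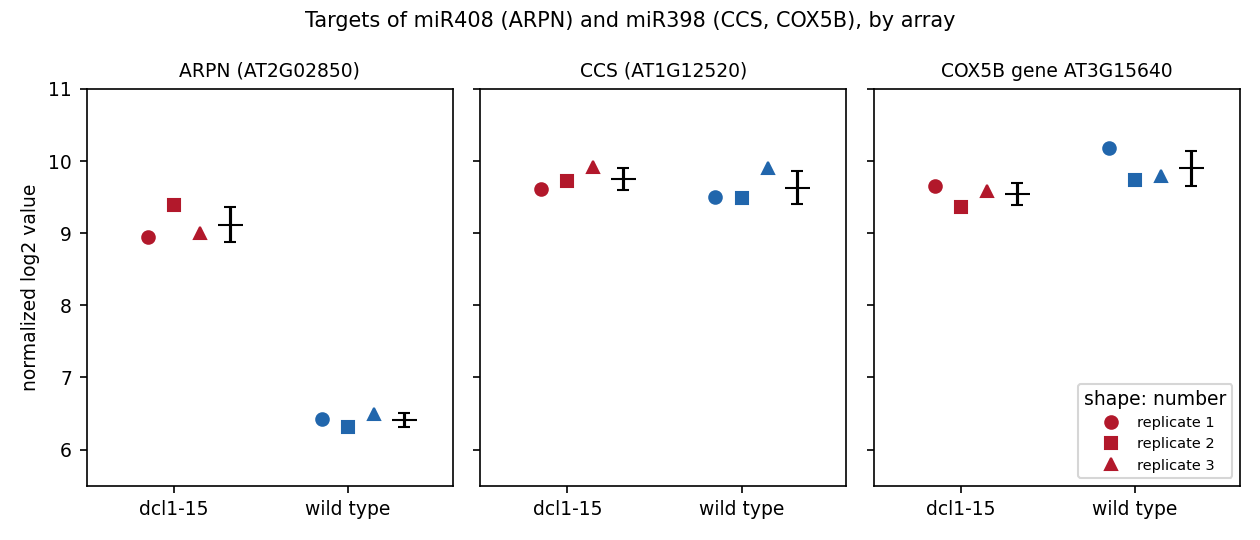
Normalized log2 value (vertical axis) of ARPN, CCS and AT3G15640 on each array, with dcl1-15 left and wild type right in each panel; point shapes mark the replicate number, and black bars give the mean ± SD of 3 arrays. ARPN lies between 8.95 and 9.39 in dcl1-15 and between 6.31 and 6.50 in wild type, CCS overlaps between genotypes, and AT3G15640 lies slightly lower in dcl1-15.

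Same-numbered arrays were also compared. For ARPN and AT3G15640 the genotypes did not overlap, so each such difference had to have the same sign, however arrays were matched. ARPN was higher in dcl1-15 by 2.52, 3.09 and 2.51 on the log2 scale in numbers 1, 2 and 3. CCS, for which no direction is given, differed by 0.11, 0.24 and 0.016. AT3G15640 differed by -0.52, -0.36 and -0.21. Thus the arrays numbered 2 gave ARPN and CCS their widest positive differences, and those numbered 1 gave AT3G15640 its widest negative one.

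The response of ARPN was set against that of each miR398 target by comparing the array-wise gap between 2 genes across genotypes. ARPN differed by 2.58 more than CCS and by 3.07 more than AT3G15640, and in both cases the dcl1-15 and wild-type arrays did not overlap. The exact two-sided permutation test gave p = 0.1 for each, the smallest value that 3 arrays against 3 allow, and p = 0.15 after adjustment over the 3 pairs. The lack of overlap and the p of 0.1 were fixed by ARPN, whose genotypes lay further apart than CCS or AT3G15640 varied over all arrays. They add nothing to the sizes of these differences. CCS and AT3G15640 differed from each other by 0.48, with overlapping arrays (exact permutation p = 0.2, adjusted p = 0.2).

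The other genes of the copper system were little represented. The lists for copper uptake, copper delivery, copper enzymes, phytocyanins and the targets of the 4 copper miRNAs hold 108 genes, of which 14 were measured, the 3 targets included. ARPN was the 1 that rose, 0 fell and 13 did not pass in limma, where 39.1% of all probe sets passed. The median difference of the 14 was -0.037, against -0.066 over all probe sets. An unadjusted p under 0.05 was found for 2 of the 14 genes, against 48.6% of all probe sets. A fit that blocked on replicate number called 2 of the 14 higher and 1 lower, where it called 49.2% of all probe sets. ARPN was the 1 measured gene of 4 listed miR408 targets and of 27 listed phytocyanins, the family of small blue copper proteins to which plantacyanin belongs. CCS and AT3G15640 were the 2 measured of 5 listed miR398 targets. The targets CSD1 and CSD2, which encode the superoxide dismutases that CCS supplies, were not analysed here, nor were the laccase targets of miR397, miR408 and miR857, any of the 17 laccases, SPL7 or the copper transporters of the COPT family.

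**Figure D2:**
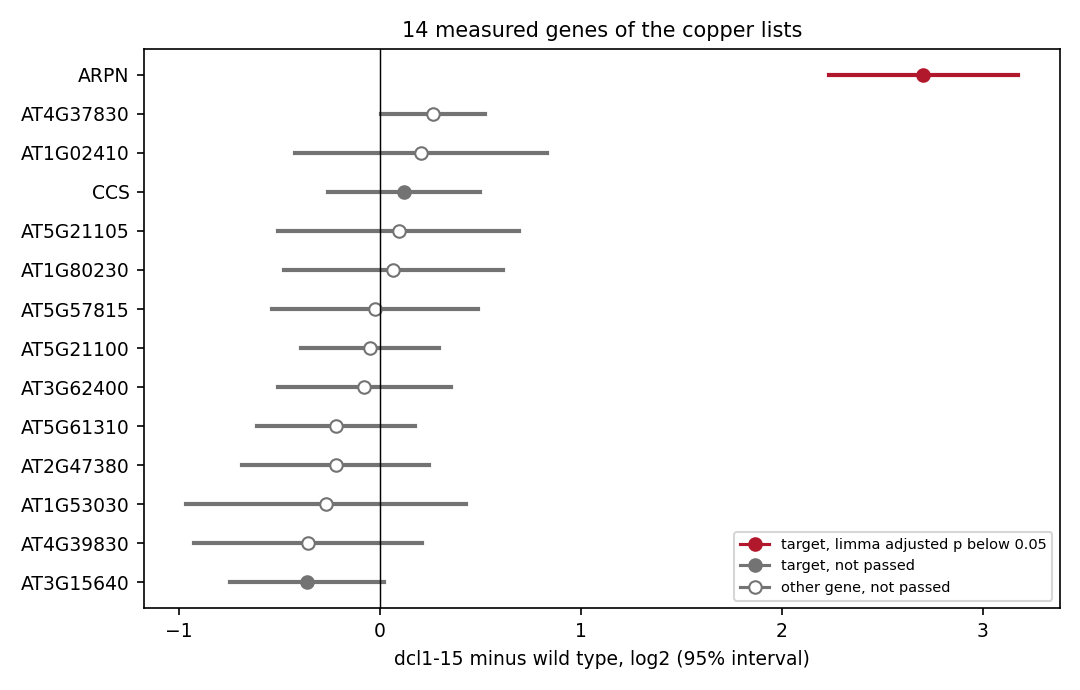
Difference between genotypes (horizontal axis, dcl1-15 minus wild type, log2) with its 95% interval for each of the 14 measured genes of the copper lists, sorted by size; filled points are the 3 miRNA targets and red marks a limma adjusted p below 0.05. ARPN lies at 2.70, and the other 13 lie between -0.36 and 0.26.

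AT3G15640 was 1 of 7 measured genes on the list of 15 nuclear genes for cytochrome c oxidase subunits and assembly factors, and it had the lowest difference among them. In limma 0 of the 7 passed, where 39.1% of all probe sets did, against 2 with the replicate block, which called 49.2%. An unadjusted p under 0.05 was found for 1 of the 7, against 48.6% of all probe sets. The median difference of the 7 was -0.077. AT1G80230, the other listed gene for subunit 5b, measured 8.30, 7.78 and 7.89 in dcl1-15, against 8.26, 7.89 and 7.63 in wild type. Its genotypes overlapped, and it differed by 0.066 ± 0.24 (SE, limma adjusted p = 0.852). The array-wise gap between AT3G15640 and AT1G80230 differed by -0.43 between dcl1-15 and wild type, with no overlap (exact two-sided permutation p = 0.1, the smallest possible with 3 arrays against 3). Against the median of the other 6 genes on each array the difference of AT3G15640 was -0.17, and the genotypes overlapped (exact permutation p = 0.3). These last 2 contrasts were chosen after the values had been seen.

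Among those 7 genes wild-type array 1 held the highest wild-type value of 6, AT3G15640 among them. The 1 exception was AT4G37830, listed for subunit 6a, which measured 11.47, 11.44 and 11.29 in dcl1-15, against 11.20, 11.25 and 10.96 in wild type. Its values were all higher in dcl1-15, by 0.26 ± 0.11 (SE, limma adjusted p = 0.0962). In either direction, 52.5% of all probe sets had genotypes that did not overlap. Neither AT4G37830 nor AT3G15640 passed in this fit. With the replicate number as a block AT4G37830 passed (limma adjusted p = 0.0344), where 49.2% of all probe sets did. Among the dcl1-15 arrays, number 1 was also the highest for AT3G15640, AT1G80230, AT3G62400, AT5G61310 and AT4G37830, but not for AT2G47380 or AT5G57815. How often array 1 was the highest over all probe sets was not counted. Without both arrays numbered 1 the difference of AT3G15640 was -0.29 (limma adjusted p = 0.133). The part of wild-type array 1 in that difference was not tested beyond this value and the value without that array alone given above.

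The measured genes for copper delivery and for secreted copper oxidases did not pass. AT1G53030, listed for the copper carrier COX17, differed by -0.27 ± 0.31 (SE, limma adjusted p = 0.523), and AT1G02410, listed for the cytochrome c oxidase assembly factor COX11, by 0.20 ± 0.28 (adjusted p = 0.596). They were the 2 measured of 16 genes for copper pumps, chaperones and metallothioneins. All 3 listed genes for ascorbate oxidase, a copper enzyme of the cell wall, were measured, and their differences ran from -0.36 to 0.094. Of these AT5G21105 had a mean of 7.80 in dcl1-15 and 7.71 in wild type, while AT5G21100 and AT4G39830 stayed below log2 of 4 on every array.

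The measured markers of the tissues around the embryo were also higher in dcl1-15. On the list of 13 seed coat and endosperm markers 3 were measured, and all 3 rose, where 18.3% of all probe sets did. They were BAN, which makes precursors of seed coat tannins, DELTA-VPE, a protease of the inner seed coat, and SWEET11, a sugar exporter of seed coat and endosperm, with differences of 1.85, 2.15 and 1.62. The mean log2 value of the 3 per array ran from 8.29 to 8.79 in dcl1-15 and from 6.01 to 7.42 in wild type. The 95% intervals of these differences ran from 0.73 to 2.96 for BAN, from 0.95 to 3.34 for DELTA-VPE and from 1.24 to 2.01 for SWEET11, against 2.23 to 3.18 for ARPN. On wild-type arrays 1, 2 and 3 DELTA-VPE measured 7.23, 9.77 and 8.58, BAN 1.53, 3.65 and 2.56, and SWEET11 9.27, 8.85 and 8.71. All 3 of these BAN values lay below log2 of 4, as did its 3.90 on dcl1-15 array 1. On dcl1-15 arrays 2 and 3 BAN measured 4.46 and 4.91. The wild-type spans were 2.54 for DELTA-VPE, 2.13 for BAN, 0.56 for SWEET11 and 0.19 for ARPN. The part of these tissues in the rise of ARPN was not tested. Of 15 listed embryo markers 4 were measured. The organ gene YAB3, the root pole gene BBM and the shoot meristem signal CLV3 fell, where 20.8% of all probe sets did. Their log2 differences were -3.90, -1.59 and -1.44. CLV3 lay below log2 of 4 on every array, and BBM on every dcl1-15 array. The organ gene YAB5 differed by 0.34 ± 0.32 (SE, limma adjusted p = 0.441). The mean of the 4 per array ran from 5.19 to 5.36 in dcl1-15 and from 6.93 to 6.98 in wild type.

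**Figure D3:**
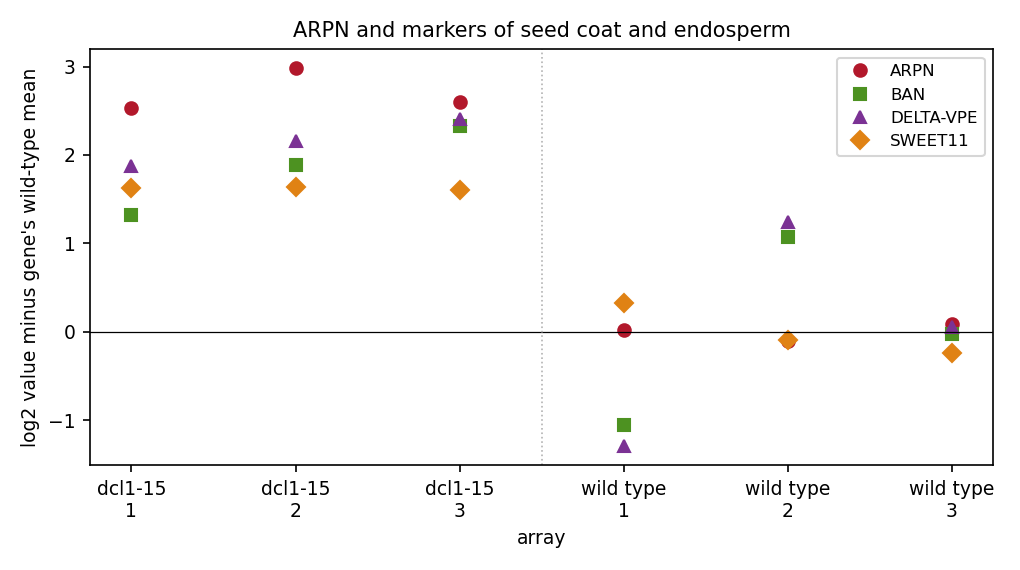
Log2 value minus the gene's own wild-type mean (vertical axis) on each array (horizontal axis, dcl1-15 left, wild type right) for ARPN and the 3 measured seed coat and endosperm markers. All 4 genes are higher in dcl1-15, and on the wild-type arrays DELTA-VPE, BAN, SWEET11 and ARPN spread over 2.54, 2.13, 0.56 and 0.19.

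The genes with array patterns most like those of each target were found by the root mean square difference of values centred on each gene's mean, over the 6 arrays and all single-gene probe sets. For ARPN these were AT1G11740 at 0.058, AT1G22330 at 0.11 and the cytochrome P450 gene CYP71B34 at 0.12, against a median of 1.42 over all genes. Their differences were 2.75, 2.67 and 2.88, near the 2.70 of ARPN, and a rise of that size makes up most of this pattern. For each target the nearest genes were picked as the closest, so that lying below the median was fixed by the choice. CYP71B34 averaged 6.89 in dcl1-15 and 4.01 in wild type, and AT1G11740 and AT1G22330 averaged 3.29 and 2.74 in wild type. For CCS they were AT1G68185 at 0.042, AT4G24350 at 0.045 and DFO at 0.068, and for AT3G15640 they were AT1G55530 at 0.036, AT1G23340 and AT4G25210, both at 0.061. The medians over all genes were 0.42 for CCS and 0.43 for AT3G15640. AT4G24350, DFO and AT1G23340 averaged below log2 of 4 in both genotypes (1.82, 2.11 and 2.54 in dcl1-15).

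ARPN rose under every alternative analysis listed in the closing section, with differences from 2.51 to 2.80. The lowest came without the arrays numbered 2 (limma adjusted p = 0.00499) and the highest without those numbered 3 (adjusted p = 0.00212). CCS ranged from -0.017 to 0.25 and passed under none of the 16 alternatives. AT3G15640 ranged from -0.50 to -0.23 and passed only with the replicate number as a block.

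**Figure D4:**
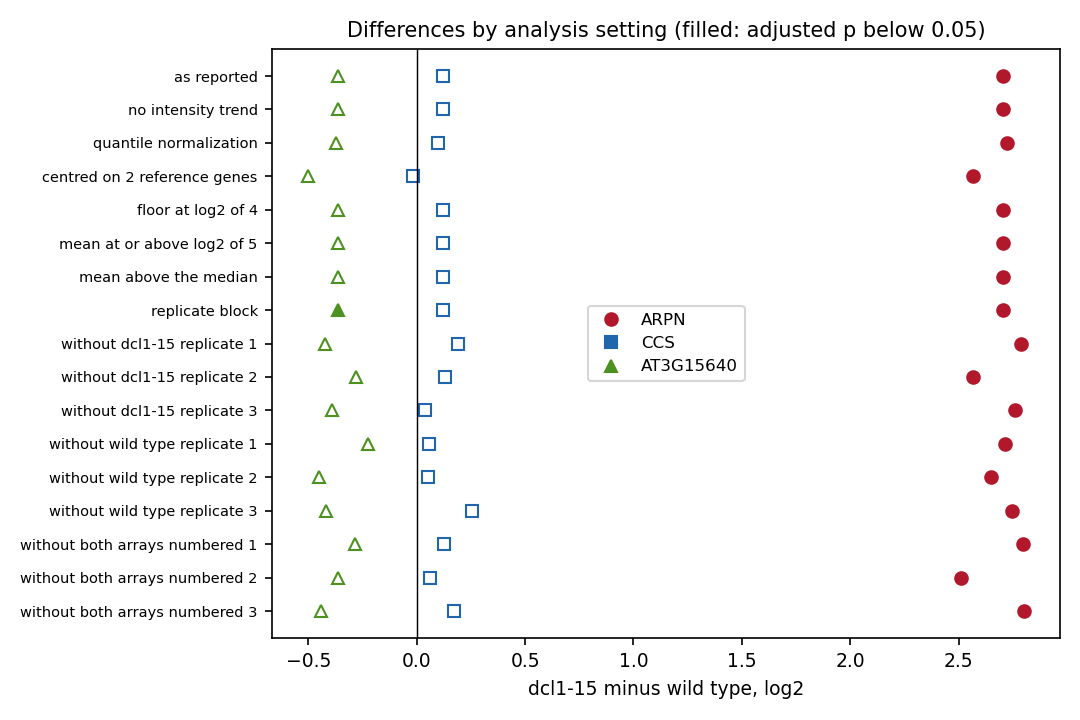
Difference between genotypes (horizontal axis, dcl1-15 minus wild type, log2) of ARPN, CCS and AT3G15640 as reported and under each of 16 alternatives (rows); filled points have a limma adjusted p below 0.05. ARPN stays between 2.51 and 2.80, CCS lies near 0, and AT3G15640 is filled in the row with the replicate block.

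The array medians lay between 6.34 and 6.48. No single-gene probe set named DCL1 in the annotation used here, so the level of the mutated gene gave no check of which arrays are mutant, and genotypes are as labelled.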

How the data were processed

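Total RNA of pooled embryos was measured on 6 single-colour oligonucleotide arrays, 3 of dcl1-15 and 3 of wild type. The table the authors deposited holds 17159 probe sets as normalized log2 values. GCRMA and MAS5 appear in the submitters' processing notes, without a version and without saying which made these values, and no source used here says how rows were chosen. The log2 scale was inferred from the range of the values. No scanner file or detection call was used, so distance from background is unknown; 3 arrays per genotype limit the precision. The 37 control probe sets were set aside. The platform annotation named 1 gene for 9631 probe sets, several for 365 and none for 7126, and 9584 of the first were found in the RefSeq gene table of TAIR10.1, used for names only.

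The comparison of dcl1-15 with wild type used R 4.3.3 and limma 3.58.1 (lmFit, eBayes with an intensity trend, Benjamini-Hochberg over 17122 probe sets, threshold 0.05), and the code was tested on simulated data. The members and lists were chosen with earlier results of these data known. Named were the 3 targets, every measured target of miR397, miR398, miR408 or miR857, up to 3 rises and 3 falls past the threshold per list, and the 3 nearest patterns of each target; other genes were named after their values were seen. The main fit did not use the replicate numbers, and the block on them is an alternative. Deviations of same-numbered arrays from their group means correlated at 0.48, 0.21 and 0.36, all above 0.1. Unmatched pairs reached 0.31 (dcl1-15 replicate 3 with wild-type replicate 2) and 0.15 (dcl1-15 replicate 2 with wild-type replicate 3). All other unmatched pairs, each with an array numbered 1, were negative, from -0.44 to -0.23. The 0.31 exceeds the 0.21 of the arrays numbered 2, so the correlations do not settle whether the numbers pair the samples. The labels do not state a pairing.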

Additional observations from a re-analysis of the deposited data

How the results depend on the processing

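Alternatives were limma without the intensity trend, quantile normalization, centring on 2 reference genes, a floor at log2 of 4, 2 filters on dim probe sets, the replicate block, and leaving out each array or each pair of same-numbered arrays. Averaging several probe sets per gene was not run, since each listed gene had 1. ARPN passed under all 16, with differences from 2.51 to 2.80. Centring moved the median of all probe sets to -0.20, against -0.066 as reported, lowered the share of higher calls to 36.1%, against 46.9%, and turned CCS to -0.017. The 2 reference genes themselves differed in opposite directions, AT2G28390 by 0.39 (limma adjusted p = 0.0729) and AT4G34270 by -0.12 (adjusted p = 0.590). With the replicate block AT3G15640 passed at -0.36 (limma adjusted p = 0.0450) and AT4G37830 at 0.26 (adjusted p = 0.0344). The copper lists then had 3 calls, 2 higher and 1 lower, against 1 and 0, where 8425 of all probe sets were called (3834 higher, 4591 lower). No other call among the 14 genes changed with the block. Leaving out arrays gave -0.45 to -0.23 for AT3G15640, 0.037 to 0.25 for CCS and 1 call in the copper lists. Of all probe sets 6702 passed (3140 higher, 3562 lower). This became 4161 with the floor (1886 and 2275), 4409 at a mean of log2 of 5 or more (1967 higher) and 3369 above the median (1505 and 1864), where the filters tested fewer probe sets. Without the arrays numbered 2 it was 2493 (1327 and 1166) and without those numbered 3 it was 3151 (1702 and 1449), and without those numbered 1 it was 8905 (3990 and 4915). Without dcl1-15 replicate 2 the lower calls numbered 2293. Why these counts depend on the arrays left out was not tested.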
